A study of Mus musculus with 2 samples.

Results

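Neurexins, neuroligins and their partners are adhesion proteins that meet across the synaptic cleft. Footprints on 9 of these genes were described among the 45578 genes of the table: Nrxn2 and Nrxn3 (neurexins), Nlgn1, Nlgn2 and Nlgn3 (neuroligins), Lrrtm1 and Lrrtm2 (leucine-rich repeat transmembrane proteins), Adgrl1 (a latrophilin) and Cask (a cytoplasmic scaffold). The genes were taken by symbol, from the transcript names of the deposited table, and all 9 were found, with 70 annotated transcripts in all. Each had a mean count of at least 100, so none was lost to the minimum mean count of 10 used for testing.

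As background, neurexins sit in the presynaptic membrane and bind neuroligins, LRRTM proteins, latrophilins and secreted ligands. Each neurexin gene has a promoter for a long alpha form with many extracellular domains and an internal promoter for a short beta form that keeps the last of them. Nlgn1 protein is found mainly at excitatory synapses, Nlgn2 protein mainly at inhibitory synapses, and Nlgn3 protein at both kinds. Cask binds the intracellular tail of neurexins through its PDZ domain. Many of these genes are expressed by neurons during the early postnatal period in which synapses form.

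Ribosome profiling was applied to polysomes of brains from 2 control mice at postnatal day 5, on the FVB background. Both animals carried the genotype Smn+/-; SMN2tg/0, that is, 1 disrupted copy of mouse Smn and a human SMN2 transgene, and they formed a single group of biological replicates (n = 2). The mice are a control for a model of spinal muscular atrophy and are not wild type, and no group without these alleles was analysed here. Nuclease leaves only the stretches of mRNA covered by ribosomes, of 25 to 35 nucleotides after size selection, so a count is the number of such fragments (footprints) sequenced. The levels are not translational efficiencies, because matched mRNA levels were not analysed here.

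The libraries held 1866831 footprints in replicate 1 and 5261878 in replicate 2, so replicate 2 was the more precise by counting. Defining genes of brain cells were present in both: all 5 neuronal markers had footprints, with a summed level of 3511 CPM (footprints per 1000000 of the library) in replicate 1 and 2391 CPM in replicate 2. Astrocyte markers (4 of 4 present) summed to 1018 and 1032 CPM, oligodendrocyte lineage markers (4 of 4) to 696 and 911 CPM, microglial markers (3 of 3) to 159 and 177 CPM, and endothelial markers (3 of 3) to 197 and 152 CPM. Of 3 liver markers, Alb and Apoa2 were at 0 in both libraries and Cyp3a11 had 1 footprint in replicate 2. Muscle markers Ckm and Myh4 had 3 to 10 footprints, while Acta1, which is nearly identical to other actins, had 140 and 264. In whole tissue, fewer cells of a type and less RNA per cell cannot be told apart.

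Together the 9 genes took 0.254% ± 0.00225 of all footprints (SD, n = 2). Their sum was 4765 footprints in replicate 1, or 0.255% of the library (exact Clopper-Pearson 95% interval 0.248 to 0.263), and 13263 in replicate 2, or 0.252% (0.248 to 0.256). The summed level therefore differed by less than counting error, although single members differed in opposite directions. Intervals cover counting error within a library only, and not the spread between animals. Copies made by PCR are not independent molecules, so the intervals can be too narrow even for counting error.

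Levels were compared between genes as footprint density, the CPM per kilobase of the longest annotated coding sequence. Nrxn2 had the highest density of the 9 genes and Lrrtm2 the lowest, in both libraries. With the highest transcript of each gene alone, Nlgn2 was highest, at 110.7, and Nrxn3 lowest, at 15.04, while Lrrtm2 stood at 46.98. In that setting CPM is per 1000000 footprints on the highest transcripts, not of the library. Its values therefore compare with each other and not with the other densities given here. With all transcripts summed, the order by mean density was Nrxn2, Adgrl1, Nlgn2, Nlgn3, Cask, Lrrtm1, Nrxn3, Nlgn1 and Lrrtm2. Adgrl1, Nlgn2, Nlgn3 and Cask formed a run in which each gene's range over the replicates overlapped that of its neighbour, and so did the ranges of Nrxn3 and Nlgn1. The ranges of the other neighbours did not overlap, but that of Cask, from 66.3 to 100.1, lay only just above that of Lrrtm1, from 64.5 to 65.2. Coding length and density had a Spearman's rho of 0.57 over the 9 members, which share both libraries, and this was not tested. Nrxn3, with 4716 nucleotides of coding sequence, was at rank 7 of the 9 in density. The median density was 75.7 ± 13.3 for the members and 23.5 for the 13349 tested genes with a coding sequence, and the mean of Lrrtm2 lay at percentile 50.4 of those genes.

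**Figure D1:**
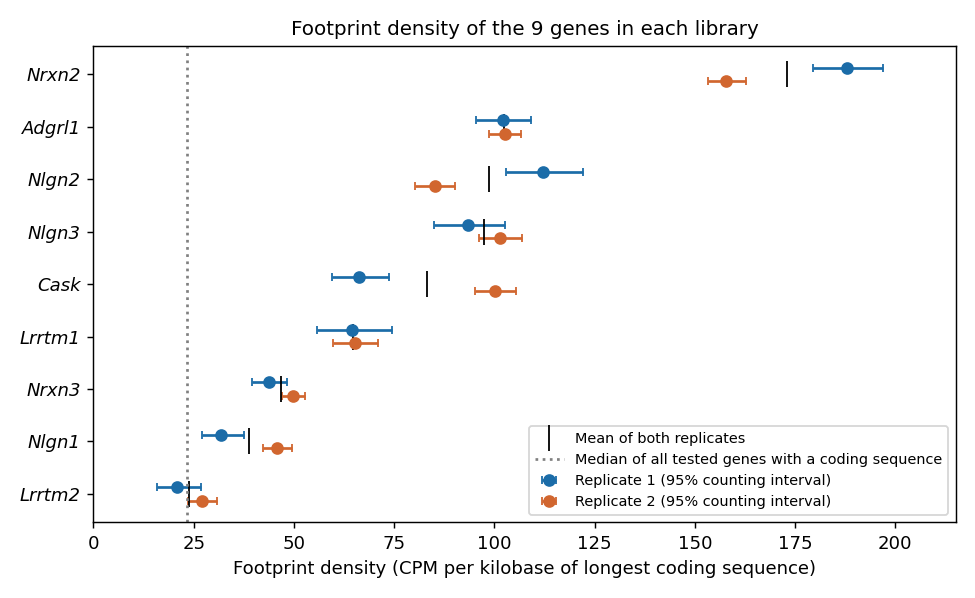
Footprint density of the 9 genes on the horizontal axis, in CPM per kilobase of the longest coding sequence, with a point per replicate, its 95% counting interval, the mean of both replicates and the median of all tested genes with a coding sequence (23.5). Nrxn2 lay highest in both libraries, at 187.9 and 157.9, and the points of Nlgn2 and Cask were far apart between the replicates in opposite directions.

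Of the presynaptic neurexins, Nrxn2 (ENSMUSG00000033768, longest coding sequence 5133 nucleotides) was the member with most footprints. It had 1801 footprints in replicate 1, or 965 CPM (95% interval 921 to 1010), and 4264 in replicate 2, or 810 CPM (786 to 835). Its mean level was 888 ± 109 CPM and its density 173 ± 21.3 (SD, n = 2). Replicate 2 was the lower library and the counting intervals did not overlap.

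Nrxn3 (ENSMUSG00000066392, 4716 nucleotides of coding sequence), the other neurexin among the members, had 385 footprints in replicate 1 and 1238 in replicate 2. These counts gave 206 CPM (186 to 228) and 235 CPM (222 to 249), so replicate 2 was higher and the intervals overlapped. The density of Nrxn3 was 46.8 ± 4.36. In density Nrxn2 exceeded Nrxn3 by 4.30 times in replicate 1 (exact interval from the paired counts 3.85 to 4.81) and by 3.16 times in replicate 2 (2.97 to 3.37). The direction was the same in both libraries, but the size of the ratio was not.

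The neurexin transcripts differ in coding length in the way the alpha and beta forms do, although their names do not state the form. Nrxn2 had 4 coding transcripts with a coding sequence of 4512 to 5133 nucleotides, which took 58.8% of its footprints in replicate 1 (95% interval 56.5 to 61.1) and 64.1% in replicate 2 (62.6 to 65.5). The 2 coding transcripts of 1062 and 1983 nucleotides took 23.5% (21.6 to 25.6) and 18.4% (17.3 to 19.6). Per kilobase of their own coding sequence, these short forms ranged from 66.5 to 89.8 CPM in replicate 1 and from 47.2 to 52.4 CPM in replicate 2. The long forms ranged from 25.8 to 30.7 CPM and from 24.5 to 27.4 CPM. These 2 transcripts were therefore denser than the long forms per coding kilobase in both libraries, and their share of the gene was lower in replicate 2, with intervals that did not overlap. Per kilobase of the whole transcript this held in replicate 1 but not in replicate 2, where Nrxn2-003 had 16.95 CPM and the long forms 19.5 to 24.5 CPM. The remaining coding transcripts, of 618 and 648 nucleotides, were less dense than the long forms, at 7.80 to 14.9 CPM per coding kilobase over both libraries, and took 1.499% and 1.97% of the footprints. Long and short forms share exons, and how a fragment that matches several transcripts was assigned is not given in the sources used here.

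Nrxn3 showed the same arrangement at lower counts. Its 3 coding transcripts of 3303 to 4716 nucleotides took 30.4% of its footprints in replicate 1 (25.8 to 35.3) and 37.2% in replicate 2 (34.5 to 39.9), while those of 1293 and 1704 nucleotides took 25.5% (21.2 to 30.1) and 20.8% (18.6 to 23.2). The densities of the short forms, from 15.5 to 18.6 CPM per coding kilobase over both libraries, exceeded those of the long forms, from 3.41 to 8.18. Per kilobase of the whole transcript the gap was smaller, with 7.23 to 8.93 CPM for the short forms and 2.43 to 7.02 CPM for the long forms. In replicate 2 Nrxn3-006 had 7.23 CPM by that measure and the long form Nrxn3-201 had 7.02 CPM. The intervals of the shares overlapped between the replicates in both classes. A further 25.2% ± 0.715 of Nrxn3 footprints lay on 2 transcripts annotated as targets of nonsense-mediated decay, a pathway that destroys mRNAs with an early stop codon.

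**Figure D2:**
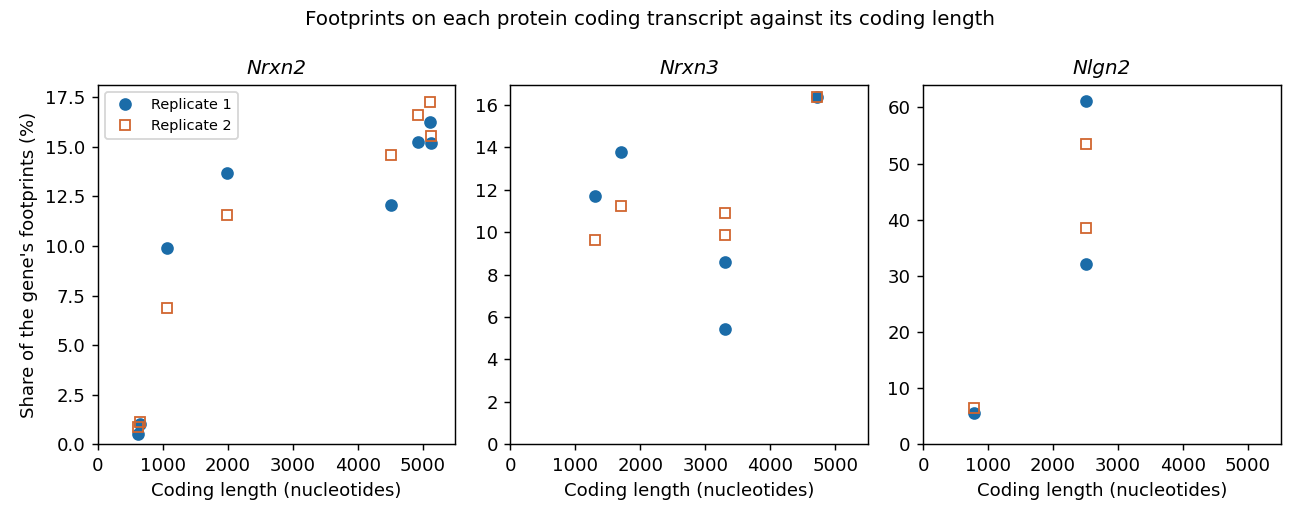
Share of a gene's footprints (vertical axis, percent) on each of its protein coding transcripts, against the coding length of that transcript in nucleotides, for Nrxn2, Nrxn3 and Nlgn2, with filled circles for replicate 1 and open squares for replicate 2. In Nrxn2 the transcripts of 1062 and 1983 nucleotides lie lower in replicate 2 than in replicate 1, and in Nlgn2 the transcripts of 2511 nucleotides differ from each other in both.

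Of the postsynaptic neuroligins, Nlgn2 (ENSMUSG00000051790) had 526 footprints in replicate 1, or 282 CPM (258 to 307), and 1125 in replicate 2, or 214 CPM (201 to 227). The intervals did not overlap and replicate 2 was lower. Nlgn3 (ENSMUSG00000031302) had 443 and 1354 footprints, or 237 CPM (216 to 260) and 257 CPM (244 to 271), with intervals that overlapped. Nlgn1 (ENSMUSG00000063887) had 151 and 611 footprints, or 80.9 CPM (68.5 to 94.9) and 116 CPM (107 to 126), and was higher in replicate 2 without overlap.

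The longest coding sequences of the neuroligins were of similar size, at 2532, 2511 and 2538 nucleotides for Nlgn1, Nlgn2 and Nlgn3. Nlgn1 had the lowest density of the family in both libraries, with 31.9 and 45.9 CPM per kilobase against 112 and 85.1 for Nlgn2 and 93.5 and 101 for Nlgn3. Of the summed density of the 3 genes, Nlgn1 made up 16.6% ± 4.45, Nlgn2 41.9% ± 7.48 and Nlgn3 41.5% ± 3.03 (SD, n = 2). Nlgn2 exceeded Nlgn1 by 3.51 times in replicate 1 (2.93 to 4.24) and by 1.86 times in replicate 2 (1.68 to 2.05). Nlgn3 exceeded Nlgn1 by 2.93 times (2.43 to 3.54) and 2.21 times (2.01 to 2.44). Nlgn2 was denser than Nlgn3 in replicate 1, at a ratio of 1.20 (1.06 to 1.36), and less dense in replicate 2, at 0.840 (0.775 to 0.910). The low place of Nlgn1 thus held in both animals, and the order of Nlgn2 and Nlgn3 did not.

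Most neuroligin footprints lay on coding transcripts, with 98.7% ± 0.262 for Nlgn2, 95.7% ± 2.17 for Nlgn3 and 84.4% ± 4.20 for Nlgn1. The rest of the Nlgn1 footprints lay on a retained intron transcript. Among Nlgn2 transcripts, Nlgn2-001 and Nlgn2-002 have the same coding length and the same length of 3' untranslated region, and Nlgn2-001 has 565 nucleotides more of 5' untranslated region. Nlgn2-001 had 322 footprints in replicate 1 and 602 in replicate 2, against 169 and 433 for Nlgn2-002. It therefore held 65.6% of the pair's footprints in replicate 1 (61.2 to 69.8) and 58.2% in replicate 2 (55.1 to 61.2). The excess of Nlgn2-001 was 153 footprints (82.0 CPM) in replicate 1 and 169 (32.1 CPM) in replicate 2.

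Across the table, 1214 pairs of transcripts from 760 genes had equal coding lengths of at least 1000 nucleotides, other untranslated lengths and at least 50 footprints per library. The longer transcript held a median of 51.5% of the pair's footprints in replicate 1 (middle 50% of pairs from 48.2 to 55.5) and 51.04% in replicate 2 (49.3 to 52.9). The Nlgn2 pair lay above this middle range in both libraries. So did Nlgn1-001 over Nlgn1-201, at 73.2% (61.4 to 83.1) and 62.3% (56.4 to 67.9), where the longer transcript had 1852 nucleotides more of 5' and 5596 more of 3' untranslated region. The Nlgn1 pair of 2445 coding nucleotides, in which the longer transcript had 361 nucleotides less of 5' and 1620 more of 3' untranslated region, lay below it at 42.3% (28.7 to 56.8) and 41.2% (35.0 to 47.7). Lrrtm1-003 over Lrrtm1-001, with 409 nucleotides more of 3' untranslated region, also lay below it, at 47.1% (37.8 to 56.4) and 46.99% (41.5 to 52.5). The pairs were picked out after their values were seen, so they carry no test.

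**Figure D3:**
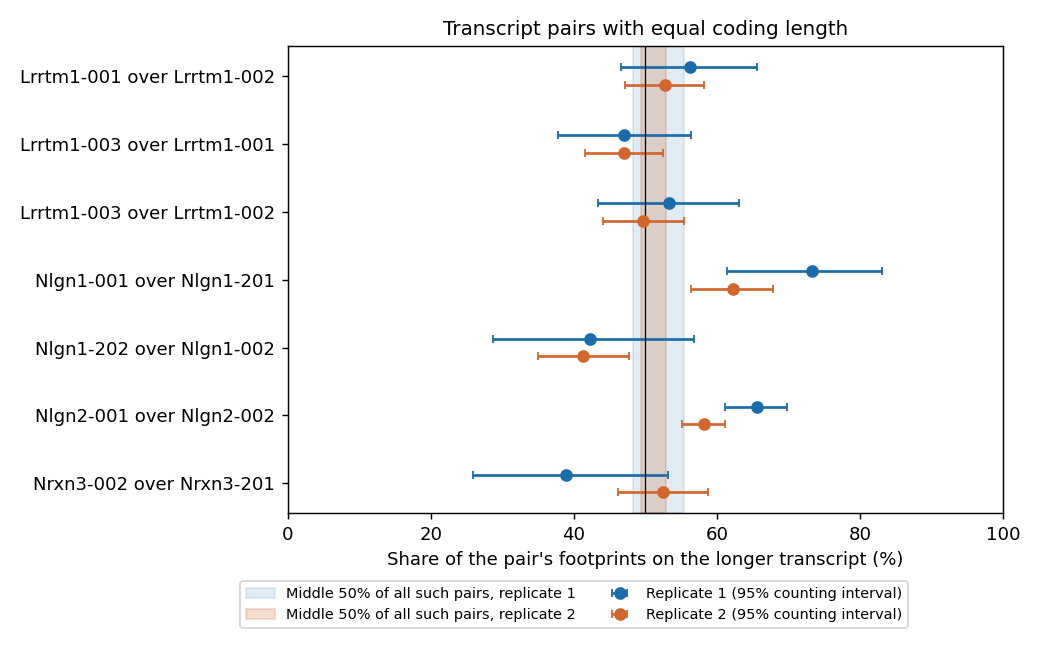
Share of the footprints of a transcript pair that lay on the longer transcript (horizontal axis, percent) for the 7 pairs of equal coding length among the members, with 95% counting intervals per replicate and shaded bands for the middle 50% of all such pairs in the table. Nlgn2-001 over Nlgn2-002 and Nlgn1-001 over Nlgn1-201 lie to the right of the bands in both libraries, and the other Nlgn1 pair, of 2445 coding nucleotides, and Lrrtm1-003 over Lrrtm1-001 have points to the left of them in both.

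The LRRTM proteins are further postsynaptic ligands of neurexins. Lrrtm1 (ENSMUSG00000060780, 1569 nucleotides of coding sequence) had 189 footprints in replicate 1 and 538 in replicate 2, or 101 CPM (87.3 to 117) and 102 CPM (93.8 to 111), nearly the same level in both animals. Lrrtm2 (ENSMUSG00000071862, 1548 nucleotides) had 60 and 220 footprints, or 32.1 CPM (24.5 to 41.4) and 41.8 CPM (36.5 to 47.7), with intervals that overlapped. Lrrtm1 was the denser by 3.11 times in replicate 1 (2.31 to 4.23) and 2.41 times in replicate 2 (2.06 to 2.84). The order turned with the highest transcript of each gene alone, where the mean density was 41.9 for Lrrtm1 and 46.98 for Lrrtm2, which has no other transcript to lose. With all transcripts summed it was also denser than Lrrtm3, by 2.57 and 2.37 times, and than Lrrtm4, by 3.01 and 1.97 times, so it led its family in each library.

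Each LRRTM member overlaps an alpha-catenin gene in a RefSeq gene table: Ctnna2 spans Lrrtm1, with 477 and 1717 footprints, and Ctnna1 spans Lrrtm2, with 135 and 333. The use of strand in counting is not given in the sources used here, so the counts of Lrrtm1 and Lrrtm2 are uncertain to that extent. A transcript of Lrrtm1 annotated as a target of nonsense-mediated decay has the same coding length as the main coding transcripts and took 29.3% ± 0.448 of the gene's footprints. Lrrtm2 had a single annotated transcript.

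Adgrl1 (ENSMUSG00000013033, 4551 nucleotides) encodes latrophilin-1, an adhesion G protein-coupled receptor that binds neurexins and teneurins. It had 868 footprints in replicate 1 and 2457 in replicate 2, or 465 CPM (435 to 497) and 467 CPM (449 to 486). Its mean of 466 ± 1.40 CPM and its density of 102 ± 0.308 put it next to Nrxn2, with almost no difference between the animals. It was denser than Adgrl2 by 2.83 times in replicate 1 (2.48 to 3.24) and 1.95 times in replicate 2 (1.82 to 2.09). Against Adgrl3 the ratios were 2.35 (2.08 to 2.66) and 1.78 (1.66 to 1.90). Of its footprints 81.02% ± 1.42 lay on coding transcripts and 15.1% ± 0.538 on Adgrl1-002, a target of nonsense-mediated decay.

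Cask (ENSMUSG00000031012, 2763 nucleotides), the intracellular partner of neurexins, had 342 footprints in replicate 1, or 183 CPM (164 to 204), and 1456 in replicate 2, or 277 CPM (263 to 291). Replicate 2 was higher and the intervals lay far apart. The mean was 230 ± 66.1 CPM. Of its footprints 86.6% ± 1.24 lay on coding transcripts and 12.9% ± 2.02 on a retained intron transcript. Gpr34, a gene that overlaps Cask in the RefSeq table, had 9 and 65 footprints.

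Over all 9 genes, coding transcripts took 83.7% ± 0.174 of the footprints, against 76.3% of the whole library in replicate 1 and 74.8% in replicate 2. Retained introns took 7.09% ± 0.415 of the member footprints, targets of nonsense-mediated decay 6.15% ± 0.418 and processed transcripts 3.04% ± 0.178. The members differed among themselves in this share, from 56.9% ± 1.52 on coding transcripts for Nrxn3 to 98.7% for Nlgn2 and 100% for Lrrtm2, whose annotation holds no other class. The coding share of Nlgn3 was 94.1% in replicate 1 (91.5 to 96.1) and 97.2% in replicate 2 (96.2 to 98.0), with intervals that just failed to overlap. These classes share exons with coding transcripts, so their footprints can be fragments of either.

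**Figure D4:**
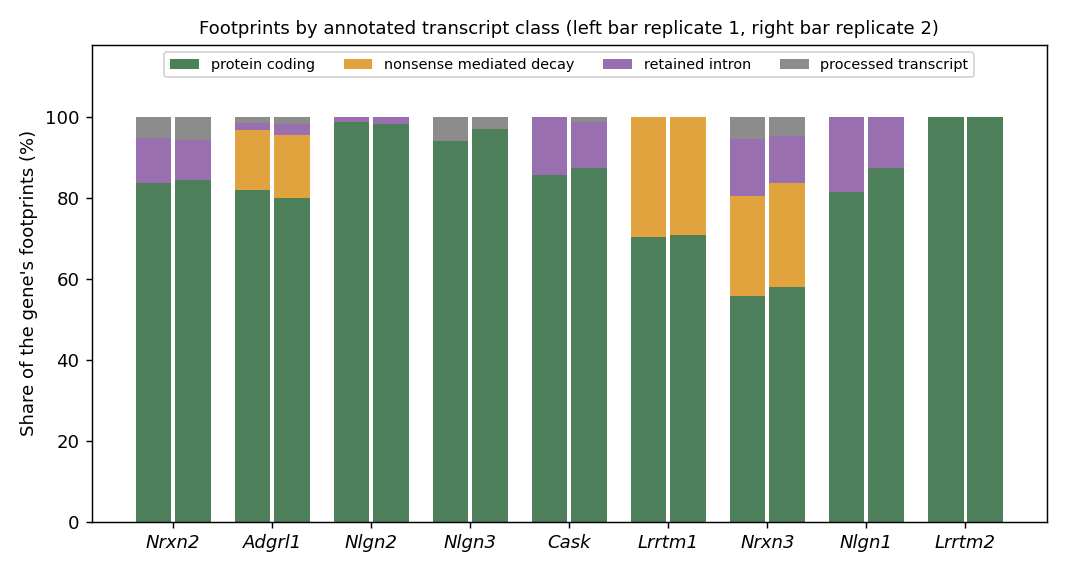
Share of each gene's footprints (vertical axis, percent) on transcripts annotated as protein coding, target of nonsense-mediated decay, retained intron or processed transcript, with the left bar for replicate 1 and the right bar for replicate 2. Nrxn3 has the smallest coding share, at 55.8% and 58.0%, and the retained intron share of Nlgn1 is 18.5% in replicate 1 and 12.6% in replicate 2.

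The libraries were then compared gene by gene, which asks how far the level of each member differed between 2 animals of the same group. Each pair of counts was tested for departure from the library sizes, scaled by TMM (trimmed mean of M values), with an exact binomial test, two-sided. Benjamini-Hochberg adjustment ran over the 16427 genes that reached the minimum count, and genes with an adjusted p under 0.05 were called. It called 4 of the 9 members, Nrxn2 and Nlgn2 lower in replicate 2 and Cask and Nlgn1 higher. Among all tested genes 17.4% were called, 11.5% lower and 5.95% higher in replicate 2. Among genes whose mean count reached 100, a class that holds all 9 members, 34.0% were called, since more footprints let smaller differences pass. The test covers counting noise only and compares these libraries, not conditions.

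For Nrxn2 the log2 ratio of replicate 2 over replicate 1 was -0.38 (adjusted p 6.03e-18, exact binomial test). Nlgn2 had a log2 ratio of -0.52 (adjusted p 9.25e-10, same exact test). Cask had a log2 ratio of 0.47 (adjusted p 8.62e-07) and Nlgn1 a log2 ratio of 0.39 (adjusted p 0.0181), also by the exact test. The neuroligins that passed, Nlgn1 and Nlgn2, thus went in opposite directions, while Nlgn3 had a log2 ratio of -0.01. The other members that were not called had log2 ratios of 0.06 for Nrxn3, -0.11 for Lrrtm1, 0.25 for Lrrtm2 and -0.12 for Adgrl1, with adjusted p-values from 0.144 to 0.986 over these 5 genes in the exact test. With library totals in place of TMM, which moved every log2 ratio up by 0.13, the ratios of Nlgn3, Lrrtm1 and Adgrl1 turned to 0.12, 0.01 and 0.01, and the same 4 genes were called in the same directions. Over all genes, the calls lower in replicate 2 were 65.8% of all calls with TMM and 39.3% with library totals.

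The summed levels of neuronal and oligodendrocyte lineage markers, given above, also differed between the libraries, and their part in these differences was not tested. With the highest transcript standing for each gene, only Nlgn2 remained called of the 9 members, where 9.41% of genes were called. edgeR's exact test with a common dispersion adds the spread between the animals to the counting noise. It called 0 of the 9 members, where 0.0670% of genes were called. At an unadjusted p under 0.05 it had 0 of the 9 members and 721 of the 16427 tested genes. Its biological coefficient of variation, 0.166, was estimated from the same 2 libraries, so the differences of the members were not separable from the spread between these animals.

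**Figure D5:**
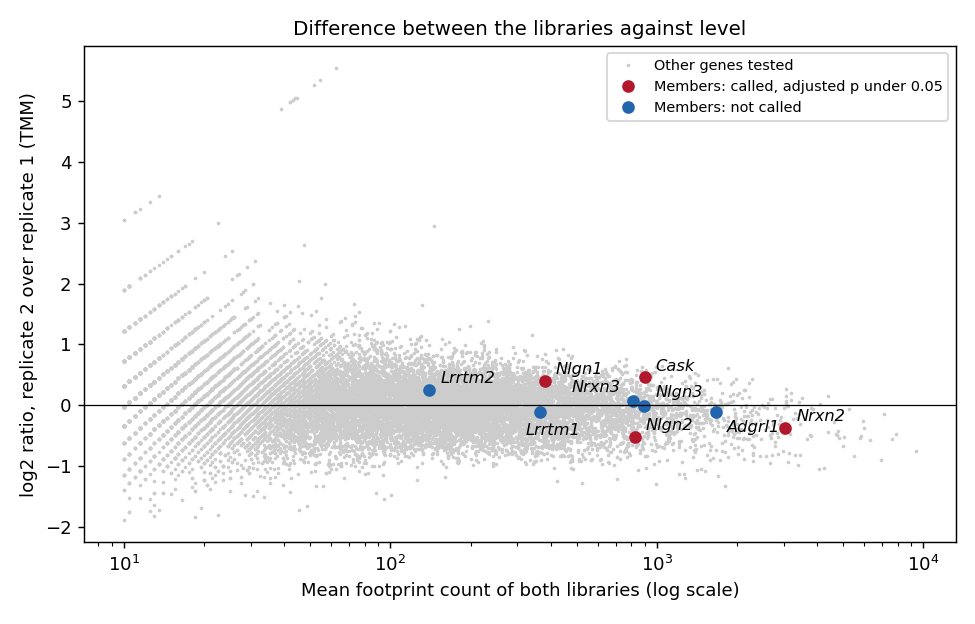
Log2 ratio of replicate 2 over replicate 1 with TMM scaling (vertical axis) against the mean footprint count of both libraries (horizontal log axis), for the 9 members and, in grey, the other tested genes. Cask at 0.47 and Nlgn1 at 0.39 lie above 0, Nlgn2 at -0.52 and Nrxn2 at -0.38 below, and the members lie within the cloud of the other genes at similar counts.

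The same test on single transcripts called 10 of the 66 member transcripts that reached the minimum count, 8 lower and 2 higher in replicate 2. Of all 43655 tested transcripts 6.15% were called. More footprints let smaller differences pass here too, and the share among transcripts of like counts was not computed. Of the 10 called member transcripts, 7 were among the 15 transcripts of Nrxn2 and all 7 were lower. Nrxn2-003, a short form of 1062 coding nucleotides with counts of 178 and 293, had a log2 ratio of -0.95 (adjusted p 1.41e-09, exact binomial test). Nrxn2-004, the short form of 1983 coding nucleotides, had counts of 246 and 493 and a log2 ratio of -0.67 (adjusted p 4.51e-07, same exact test). The long form Nrxn2-201, with 217 and 623 footprints, was not called at -0.16. The 4 long forms ranged from -0.40 to -0.16. The lowest log2 ratios of the gene were not on coding transcripts but on the processed transcript Nrxn2-009, at -1.09 (adjusted p 0.000881, exact binomial test), and the retained intron transcript Nrxn2-002, at -0.99 (adjusted p 7.91e-07, same exact test). The coding transcripts of 648 and 618 nucleotides were not called, at -0.28 and 0.33. Whether any of these transcripts differed from the others was not tested.

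Of the Nlgn2 transcripts, Nlgn2-001 was called at -0.77 (adjusted p 6.66e-12, exact binomial test), while Nlgn2-002 was not, at -0.32 with an adjusted p of 0.153. Cask-011, with 9 and 79 footprints, was the 1 transcript of Cask that was called, at 1.37 (adjusted p 0.0311, exact test), and Nrxn3-002, with 21 and 135, the 1 of Nrxn3, at 0.98 (adjusted p 0.0335). No transcript of Nlgn1, Nlgn3, Lrrtm1, Lrrtm2 or Adgrl1 was called.

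Further genes of the pathway were taken from lists by function: other genes of the same families, secreted and membrane-bound neurexin ligands, the Cask complex, neuroligin scaffolds and LAR-type receptors with their ligands. Of 62 such genes found, 61 were tested and 21 called (34.4%), 7 higher and 14 lower in replicate 2. Of all tested genes 17.4% were called, and of those whose mean count reached 100, 34.0%. Not all of the 61 genes reached that mean count, so the 34.0% is not from a like set. The median density of the 61 genes was 30.8 CPM per kilobase and their median log2 ratio -0.10, beside 23.5 and 0.01 over all tested genes.

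The list of other membrane neurexin ligands held 6 genes, of which 3 were called. These were the 3 calsyntenins, all lower in replicate 2, with log2 ratios of -0.52 for Clstn1, -0.35 for Clstn2 and -0.43 for Clstn3. Among all tested genes 17.4% were called, 11.5% lower and 5.95% higher. Lower calls were 65.8% of all calls with TMM but 39.3% with library totals. Clstn1 was the densest of the 6 listed genes, at 290 ± 55.2, above Nrxn2 itself. Of 10 tested secreted ligands 3 were called, all lower: the neurexophilin Nxph4 (-0.88), the cerebellin Cbln4 (-0.65) and the complement-like C1ql1 (-0.84). Cbln1, which links neurexins to the delta glutamate receptors and was the densest of this list at 137 ± 1.77, had a log2 ratio of -0.10 and was not called.

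In the Cask complex 5 of 9 genes were called. Cask was the 1 called higher, and the 4 called lower included its partners in the complex Apba1 (Mint1, -0.65), Lin7b (-0.50) and Caskin1 (-0.57). Calls lower in replicate 2 were also the more frequent over all genes with TMM, as given above. Of all tested genes 17.4% were called, and of those whose mean count reached 100, 34.0%. Among neuroligin scaffolds and regulators 4 of 14 were called: Dlg1 (0.71) and Dlg2 (0.25) higher, and Shank1 (-0.32) and the Nlgn2 partner Lhfpl4 (-0.60) lower. Dlg4, which encodes PSD-95 and was the densest of these at 104 ± 1.74, had a log2 ratio of -0.09 and was not called.

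Adgrl2 (0.41) and Adgrl3 (0.28) were called higher in replicate 2 and their ligand Flrt1 (-0.58) lower, 3 of 10 in the list that holds Adgrl1. Beside the counts of calls in this and the next lists, 17.4% of all tested genes were called. Lrrtm4 was called higher (0.50), 1 of 4 LRRTM genes. Of 11 LAR-type receptors and ligands, Ptprd (0.43) and Slitrk4 (0.60) were called higher and Ptprs (-0.24), the densest at 122 ± 6.80, lower. Ctnna2, the gene that spans Lrrtm1, was called higher (0.23), while Lrrtm1 was not called.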

How the data were processed

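A single table was deposited, holding raw counts of ribosome-protected fragments per transcript as whole numbers, with a column per replicate, no normalization and annotated lengths of transcripts, coding sequences and untranslated regions. Per the submitters' processing notes, Trimmomatic 0.36, Bowtie2 2.2.6 and SAMtools were used with build GRCm38.p4; the counting tool, strand and how fragments matching several places were handled are not given in the sources used here. In 49 pairs of coding transcripts of a gene with identical lengths, the mean squared difference over the sum was 0.928, where 0 would mean that shared fragments were counted on each, so transcripts were summed per gene.

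CPM values use library totals, except that with the highest or the coding transcripts alone they use the total of those transcripts. TMM factors (edgeR 4.0.16), from genes whose mean count reached 10, were 0.957 and 1.04; log2 ratios carry a prior of 0.5 CPM. Transcripts were scaled by their own TMM factors. With a single group no contrast exists, so edgeR's quasi-likelihood test could not be fitted and an exact binomial test (scipy 1.17.1) was used. It was tried on simulated counts with counting noise only and with library totals in place of TMM. That trial held no spread between animals, so it does not bear on calls that arise from such spread. Alternatives were DESeq2 1.42.0 size factors, library totals, other minimum counts (none, 100), the highest or the coding transcripts alone, other lengths and, chosen after seeing the data, edgeR's exact test. The members and gene lists were chosen with earlier results of these data known. Text names all members and, of each list, the densest gene and each called gene, except for some results that are not reported here; 2 samples of 1 group give no pattern by which a like gene could be named. RefSeq names (GRCm38.p6) matched all 9 members and served for overlapping genes. Nlgn4l was not analysed here.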

Additional observations from a re-analysis of the deposited data

How the results depend on the processing

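The 4 called members were called in the same directions with DESeq2 size factors, library totals, no minimum count, a minimum mean count of 100 and coding transcripts alone. The highest transcript of each gene left 1 and edgeR's exact test, chosen after seeing the data, 0. With highest transcripts the log2 ratios of the calls that were lost also lay nearer 0, at -0.22 for Nrxn2, 0.24 for Nlgn1 and 0.38 for Cask, and the cause was not tested. The summed level of 2537 CPM became 1269 CPM of the highest transcripts and 2812 CPM of the coding transcripts, and 2540 with TMM. The median density of 75.7 became 43.9 with the highest transcripts, 92.1 with coding transcripts, 30.4 per kilobase of the longest transcript and 83.6 with coding length weighted by count. The coding share of 83.7% was 84.2% with equal weight per gene. Without 1 replicate, the summed level ranged from 2521 to 2552.5 CPM, the median density from 66.3 to 85.1 and the coding share from 83.6% to 83.8%. Nrxn2 led the order except with highest transcripts, where Nlgn2 did, and Lrrtm2 was last except in that setting, where Nrxn3 was. Per member, density moved by more than its replicate SD for 8 of 9 genes with highest transcripts, 6 with coding transcripts, 5 with weighted length and 9 with transcript length. With highest or coding transcripts, the changes in level and density include the change of the total used for CPM. Lrrtm2, with the same footprints on its single transcript, went from 23.9 to 46.98 with highest transcripts and to 31.7 with coding transcripts. No paired analysis was possible because both samples belong to a single group. Depth limits Lrrtm2 most, with 60 footprints in replicate 1.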
